A study of Xenopus laevis with 3 samples.

Results

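The epithelial miRNAs studied here are the members of the miR-200 family, miR-192, miR-194, miR-203, miR-205, miR-215 and miR-375. They were measured in dorsal tissue of *Xenopus laevis* gastrulae. Members were taken by a rule on names, which was set with earlier results of these data known. They are every listed sequence with a *X. laevis* (xla) or *X. tropicalis* (xtr) name called miR-200, miR-429, miR-141, miR-192, miR-194, miR-203, miR-205, miR-215 or miR-375, of any letter or arm. This gave 10 of the 175 *Xenopus*-named sequences and of the 1985 listed sequences, and all 10 had at least 1 read in some library. No *Xenopus*-named miR-141 was among them. Small RNA was sequenced from 3 libraries at stage 10.5: uninjected embryos, embryos depleted of *lhx1* with 400 pg of an antisense oligonucleotide (Lhx1-AS) and embryos depleted of *fry* with a morpholino at 20 ng (Fry-MO). Oligonucleotides went into both dorsal blastomeres at the 4-cell stage, and injected embryos were picked by the fluorescence of a tracer, a step that uninjected embryos did not undergo. Each library pools the dorsal side of 30 embryos from 3 experiments, so there is 1 library per condition, no spread between replicates and no test. No library with a control oligonucleotide was analysed here, so effects of depletion, of injection and of picking embryos cannot be told apart. Values set side by side for the 3 libraries are given in the order uninjected, Lhx1-AS, Fry-MO.

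The miR-200 family is known in mammals for keeping cells epithelial, through repression of the ZEB transcription factors that drive the change from epithelium to mesenchyme. In vertebrates, miR-200b, miR-200a and miR-429 lie in 1 genomic cluster. MiR-192, miR-194 and miR-215 are known from gut, liver and kidney epithelium of mammals, miR-203 from skin, miR-205 from stratified epithelium, and miR-375 from pancreatic islets.

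A miRNA recognises its targets mainly through its seed, bases 2 to 8 from the 5′ end, so the members are shown by seed. The sequences below are those listed by the authors, written with T for U and with the seed in capitals. A suffix such as R+1 marks a sequence 1 base longer at the 3′ end than the known miRNA, R-1 one that is 1 base shorter, and 1ss a base that differs from it. The first set is the miR-200 family, in which miR-200b and miR-429 share a seed and miR-200a differs from it inside the seed (T4C from miR-200b to miR-200a, counted from the 5′ end).
xtr-miR-200a_R+1: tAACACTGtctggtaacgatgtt
xtr-miR-200b: tAATACTGcctggtaatgatgat
xla-miR-429_R+2: tAATACTGtctggtaatgccgta
The next pair shares a seed and differs by T13A from miR-192 to miR-215. It is shown because the first base of miR-192 sets it apart from a sequence under another species' name that is described further on.
xtr-miR-192: aTGACCTAtgaattgacagcc
xtr-miR-215: aTGACCTAtgaaatgacagcc
The last pair are the miR-205 sequences, which differ at 3 bases outside the seed (C14T, G18T and T19C).
xla-miR-205: tCCTTCATtccaccggagtctg
xtr-miR-205b_1ss14CT: tCCTTCATtccactggatcctg
The other members have seeds of their own, GTAACAG in miR-194, TGAAATG in miR-203 and TTGTTCG in miR-375.

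The epithelial miRNAs were rare in all 3 libraries. Together they took 41 of 56204, 43 of 28084 and 135 of 64202 *Xenopus*-named reads. These are shares of 0.0730% (Clopper-Pearson 95% interval 0.0524 to 0.0990), 0.153% (0.111 to 0.206) and 0.210% (0.176 to 0.249). The interval of the uninjected library lies below both others. This share also moves with the most read early embryo miRNA, miR-427, which had 38438, 15455 and 13081 reads and makes up much of the *Xenopus*-named total. All 4 early embryo sequences, of miR-427 and miR-428, had 46194 of the 56204, 17445 of the 28084 and 15355 of the 64202 *Xenopus*-named reads. MiR-428 alone went another way, with 31, 87 and 27. The share is therefore no measure of the members alone, and its order does not show that the members themselves rose. Shares without the early embryo sequences were not computed. Intervals here and in what follows cover counting error only. Listed sequences of all names took 133894, 56026 and 108041 reads. Levels are given as the authors' normalized counts, in which 1 read is worth 1.09, 1.29 and 1.14. Every read number of the members was whole, while some other sequences have reads divided among several names.

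**Figure D1:**
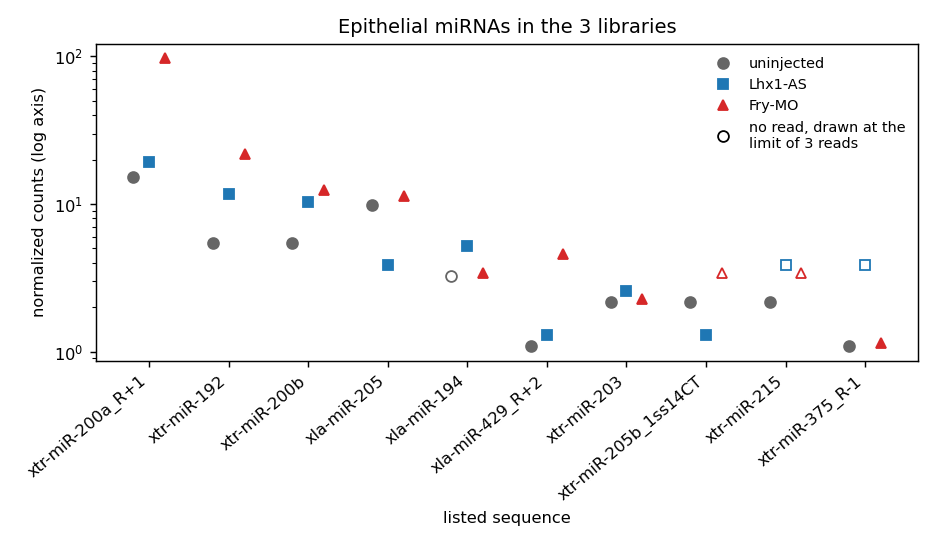
Normalized counts (log axis) of the 10 epithelial miRNAs in the uninjected (circles), Lhx1-AS (squares) and Fry-MO (triangles) libraries, 1 point per library. Open points stand for no read and are drawn at the level of 3 reads. MiR-200a at 96.9 in the Fry-MO library is the highest point.

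MiR-200a, which marks epithelium together with its cluster neighbours, was the most read member, with 14, 15 and 85 reads. Its level was 15.2, 19.4 and 96.9 normalized counts. The Fry-MO library thus stood apart, and the others were close to each other. Ranked by reads among *Xenopus*-named sequences, miR-200a came 59th, 67th and 49th. The ratio to the uninjected library was 1.28 (0.574 to 2.85) for Lhx1-AS and 6.37 (3.60 to 12.2) for Fry-MO, and Fry-MO was 4.998 times Lhx1-AS (2.87 to 9.32). Both Fry-MO intervals lay above 1, and the Lhx1-AS interval held it. This last depends on the authors' size parameter, whose derivation is not stated: by listed reads, the ratio is 2.56 (1.15 to 5.72), while TMM, the median of ratios and the mappable reads leave it between 1.15 and 1.38 with 1 inside the interval.

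The xtr-miR-200b sequence, which shares the cluster with miR-200a, had 5, 8 and 11 reads, a level of 5.43, 10.3 and 12.5 normalized counts. Its ratio to the uninjected library was 1.90 (0.549 to 7.40) for Lhx1-AS and 2.31 (0.740 to 8.48) for Fry-MO, and the ratio of Fry-MO to Lhx1-AS was 1.21 (0.444 to 3.47). All 3 intervals held 1 under the authors' normalization. They did not under every scaling: Lhx1-AS was 3.82 (1.10 to 14.9) scaled to the listed reads, and Fry-MO 3.27 (1.05 to 12.0) scaled to the mappable reads. Scaled to the listed reads, Fry-MO to Lhx1-AS was 0.713, below 1. The third sequence of the cluster, xla-miR-429_R+2, had 1, 1 and 4 reads. Its Fry-MO ratio to the uninjected library was 4.199 with an interval of 0.416 to 206.8, which says little about its size.

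Summed over its 3 sequences, the miR-200 family had 20, 24 and 100 reads, or 21.7, 31.03 and 114.0 normalized counts. The summed ratio to the uninjected library was 1.43 (0.756 to 2.73) for Lhx1-AS and 5.25 (3.22 to 8.96) for Fry-MO, and that of Fry-MO to Lhx1-AS was 3.67 (2.33 to 6.002). Both Fry-MO ratios rest on miR-200a, and without it they become 2.62 (0.962 to 8.26) and 1.47 (0.603 to 3.81), from 6, 9 and 15 reads. MiR-200a made up 14 of the 20 uninjected reads of the family (interval of the share 45.7 to 88.1%), 62.5% with Lhx1-AS (40.6 to 81.2) and 85.0% with Fry-MO (76.5 to 91.4), and these intervals overlap. This cluster is among those the study picked on these libraries for higher counts after depletion, so its direction is not independent evidence. By listed reads, the family ratio for Lhx1-AS is 2.87 (1.52 to 5.47), with 1 outside the interval.

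MiR-192, of gut, liver and kidney epithelium, had 5, 9 and 19 reads, a level of 5.43, 11.6 and 21.7 normalized counts for xtr-miR-192. Its ratio to the uninjected library was 3.99 for Fry-MO, and this is the only member besides miR-200a whose interval (1.44 to 13.7) lay above 1. For Lhx1-AS the ratio was 2.14 (0.645 to 8.14), and for Fry-MO to Lhx1-AS 1.86 (0.803 to 4.67). These become 4.30 (1.29 to 16.3) when scaled to the listed reads and 2.43 (1.05 to 6.11) when scaled to the mappable reads, respectively. MiR-194, its companion in mammalian clusters, had 0, 4 and 3 reads. With the uninjected library set to 3 reads, the Lhx1-AS ratio of miR-194 was 1.59, and its counting interval starts at 0.786 (1.58 when scaled to the listed reads). MiR-215, with the seed of miR-192, had 2 reads in the uninjected library and none in the others, where 0 reads allow a level of up to 3.88 (Lhx1-AS) and 3.42 (Fry-MO) normalized counts.

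MiR-205, of stratified epithelium, was about level between the uninjected and Fry-MO libraries. It had 9, 3 and 10 reads, or 9.78, 3.88 and 11.4 normalized counts, so its low library was Lhx1-AS. The ratio to the uninjected library was 0.397 (0.0691 to 1.59) for Lhx1-AS and 1.17 (0.426 to 3.24) for Fry-MO, which falls below 1 when scaled by TMM (0.936) or by the median of ratios (0.937). Fry-MO to Lhx1-AS was 2.94 (0.757 to 16.6). None of these intervals excludes 1, nor do those under the other scalings. The interval of its Fry-MO ratio to uninjected overlaps those of miR-192 (1.44 to 13.7) and miR-200b (0.740 to 8.48). It lies below that of miR-200a (3.60 to 12.2). MiR-205b had 2, 1 and 0 reads, miR-203 of skin had 2 in each library, and miR-375 had 1, 0 and 1, too few for a fold.

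How far these depths reach can be put in reads. With the 14 uninjected reads of miR-200a, at least 24 Lhx1-AS or 27 Fry-MO reads were needed for an interval above 1. With the 5 of miR-200b or miR-192 it took 13 or 14, and with the 2 of miR-203 it took 9 or 10. Under the authors' normalization, apart from the Fry-MO values of miR-200a and miR-192, no member reached its number in either depleted library. The 7 members outside the miR-200 family, summed, had 21, 19 and 35 reads, with ratios to the uninjected library of 1.08 (0.548 to 2.10) for Lhx1-AS and 1.75 (0.990 to 3.16) for Fry-MO, both holding 1. Scaled by TMM, the first is 0.972 and lies below 1. Scaled to the listed reads both intervals exclude 1, with 2.16 (1.10 to 4.22) for Lhx1-AS and 2.06 (1.17 to 3.73) for Fry-MO. Scaled to the mappable reads, that of Fry-MO does too (2.47, 1.40 to 4.47). The summed ratio of Fry-MO to Lhx1-AS was 1.625 (0.904 to 3.007). It becomes 2.12 (1.18 to 3.93) scaled to the mappable reads and 0.955, below 1, scaled to the listed reads.

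**Figure D2:**
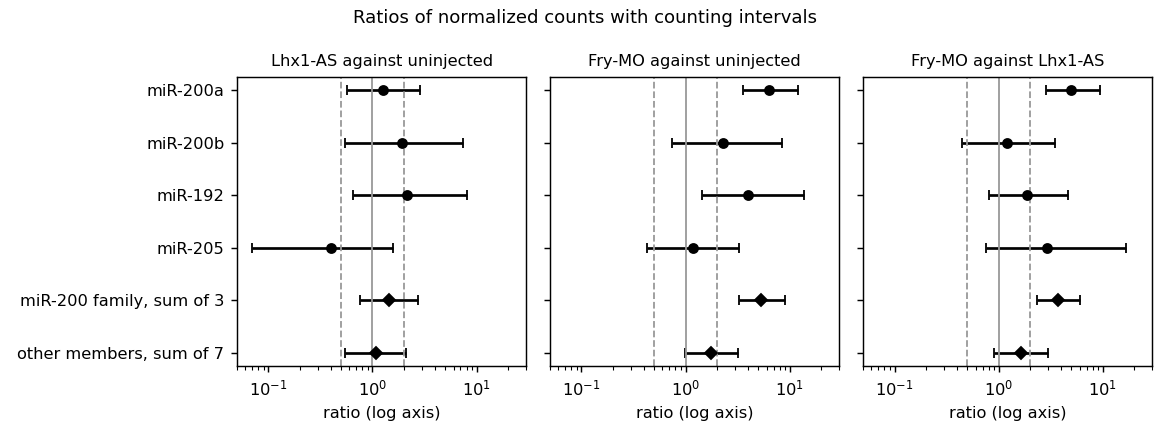
Ratios of normalized counts (log axis) for 4 single miRNAs (circles) and the 2 sums (diamonds) in the 3 comparisons; bars are 95% counting intervals, the solid line is at 1 and the dashed lines at 0.5 and 2. Of the single miRNAs, miR-200a (6.37) and miR-192 (3.99) have Fry-MO intervals that clear 1 against uninjected.

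Set against all *Xenopus*-named sequences, the members' calls did not stand out. A sequence was compared if it had at least 10 reads in 1 of the 2 libraries and called higher from a ratio of 2 upward, or lower from 0.5 downward. In the Fry-MO library, 4 members could be compared with uninjected, and miR-200a, miR-192 and miR-200b were called higher, while none was lower. MiR-192 (5 and 19 reads), miR-200b (5 and 11) and miR-205 (9 and 10) reached 10 reads only in the Fry-MO library. Having passed the filter that way, they could not be called lower. Of the 93 *Xenopus*-named sequences compared under the same filter, 68.8% were called higher and 9.68% lower. The members' calls are near this background but were partly set by the filter. The median log2 ratio, with 1 normalized count added to each level, was 1.45 over these 4 members and 2.02 over the 93. In the Lhx1-AS library only miR-200a could be compared, and it was called in neither direction, where 32.9% of 79 sequences were called higher and 6.33% lower. Its log2 ratio of 0.33 was also the median of the 79. Of 4 members compared between Fry-MO and Lhx1-AS, miR-200a and miR-205 were called higher and none lower, against 55.2% higher and 9.38% lower among 96 sequences. MiR-205 passed there on 10 reads against 3, and miR-192 (19 against 9) and miR-200b (11 against 8) also passed only through Fry-MO. This background moves with the scaling: by listed reads, 50 of the 79 were called higher with Lhx1-AS and 0 lower (26 and 5 under the authors' normalization), with miR-200a among the higher. Fry-MO against Lhx1-AS then gave 41 higher and 21 lower of 96 (53 and 9), with 1 member higher. The call of miR-200b with Fry-MO is lost under TMM (ratio 1.85) and the median of ratios (1.86).

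Other epithelial miRNAs, summed, had 48.5, 56 and 249 reads, of which miR-204 made up most with Fry-MO. Of 9 *Xenopus*-named sequences of miR-34b, miR-122, miR-184, miR-204, miR-217 and miR-449, 7 had reads and 2 could be compared. MiR-204, of kidney and eye epithelium, had 35.5, 25 and 226 reads, with ratios to the uninjected library of 0.838 (0.482 to 1.44) for Lhx1-AS and 6.68 (4.68 to 9.81) for Fry-MO. MiR-122, the main miRNA of liver, had 12, 23 and 20 reads and ratios of 2.28 (1.09 to 5.03) and 1.75 (0.815 to 3.93). MiR-184 was listed with 0, 2 and 1 reads. MiR-204 was thus called higher with Fry-MO like miR-200a, as were 68.8% of all *Xenopus*-named sequences compared. This pattern was not particular to epithelial miRNAs. MiR-214, listed below with markers of other cell types, had ratios of 1.02 (0.431 to 2.38) for Lhx1-AS and 5.55 (3.11 to 10.6) for Fry-MO. Its cluster with miR-199a is also among those the study picked on these libraries for higher counts after depletion. MiR-122 had its most normalized counts (29.7) in the Lhx1-AS library.

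Markers of other cell types are given here for the levels that moved alongside the members. The 11 sequences of miR-21, miR-140, miR-143, miR-145, miR-199, miR-214, miR-221 and miR-222, of which those of miR-21 were not listed, summed to 847, 2186 and 5132 normalized counts. All 8 that could be compared were called higher with Fry-MO, with a median log2 ratio of 2.804, and 4 of 7 with Lhx1-AS (1.01), beside 68.8% and 32.9% of all *Xenopus*-named sequences compared. MiR-199a-5p led them with 602, 1709.8 and 2509 normalized counts, followed by miR-199a-3p with 153, 279 and 1426 and miR-143 with 49.97, 98.3 and 939.6. The 6 blood sequences summed to 244.4, 249.5 and 3989.8 normalized counts. Those compared, miR-142, miR-451 and miR-144, were all called higher with Fry-MO and none with Lhx1-AS, beside the same 68.8% and 32.9%. MiR-223 was at 0 in the Lhx1-AS library and miR-150 (without its other arm) in the uninjected library. That other arm had 3, 9 and 3 reads, most with Lhx1-AS and too few to be compared. The part of these markers in the levels of miR-200a and miR-192 was not tested, nor was whether such cells were in this tissue. In pooled tissue more cells of a type and more RNA per cell cannot be told apart, and the source of these reads was not tested.

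**Figure D3:**
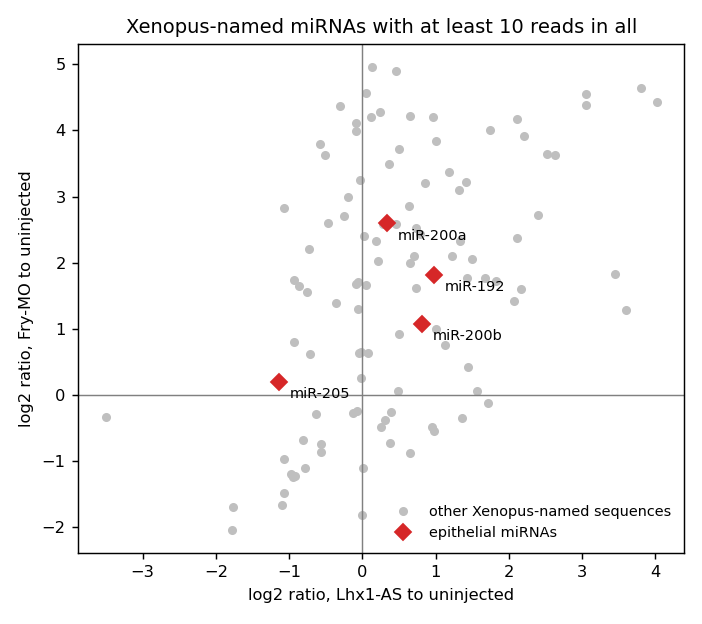
Log2 ratio to uninjected in the Lhx1-AS library (x axis) and the Fry-MO library (y axis) for the 108 *Xenopus*-named sequences with at least 10 reads over the libraries (1 normalized count added to each level); diamonds mark the 4 epithelial miRNAs among them. They lie within the cloud of the 104 others, with miR-200a at 0.33 and 2.60 and miR-205 lowest at -1.14 and 0.20.

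Over the 2 ratios to uninjected, the *Xenopus*-named sequences nearest to miR-200a among 73 with at least 50 reads were miR-30d, let-7g and miR-10a. Likeness was the distance on the log2 scale, which was 0.05 for miR-30d, 0.13 for let-7g and 0.30 for miR-10a, over 3 libraries only. MiR-30d had 147, 151 and 842 reads, let-7g 11, 13 and 67, and miR-10a 108, 103 and 522, so that each was close to even between uninjected and Lhx1-AS and higher in the Fry-MO library.

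For the seeds of miR-200a and miR-192, summed sequences under other species' names had larger Fry-MO ratios than the members. Their intervals do not overlap that of miR-200a, nor that of miR-192 and miR-215 summed. The interval of miR-192 alone (1.44 to 13.7) does overlap that of the other names with its seed (8.61 to 37.5). Such a name records the database entry that a read matched. Which organism these reads came from was not tested. Those with the seed of miR-200a, all 4 named miR-141, had 15, 29 and 412 reads, beside 14, 15 and 85 for miR-200a itself. Their ratio to the uninjected library was 2.30 (1.19 to 4.62) for Lhx1-AS and 28.8 (17.3 to 52.0) for Fry-MO. The most read of them carries the name of a sea squirt (csa-miR-141_R-1, with 14, 25 and 386 reads), differs from miR-200a by C17A in the bases they share, and is the start of the sequence named after the Chinese hamster (cgr-miR-141_R-1, with 0, 3 and 19). The *Xenopus*-named share of reads with this seed was 48.3% (29.4 to 67.5), 34.1% (20.5 to 49.9) and 17.1% (13.9 to 20.7), where the first and last intervals do not overlap.

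The seed of miR-192 gave the same order. The sequence named after the dog, cfa-miR-192, differs from xtr-miR-192 at the first base only (A1C) and had 9, 11 and 108 reads, beside 5, 9 and 19 for xtr-miR-192. Its Fry-MO ratio to the uninjected library was 12.6 (6.39 to 28.3). A sequence 1 base longer, named after cattle, had 0, 1 and 34 reads, so that its Fry-MO level was at least 11.9-fold higher than that of 3 uninjected reads. All 3 with this seed under mammalian names had 9.78, 16.8 and 164.2 normalized counts and a Fry-MO ratio of 16.8 (8.61 to 37.5), against 2.85 (1.15 to 8.02) for miR-192 and miR-215 together. The *Xenopus*-named share of the seed's reads was 43.8% (19.8 to 70.1) in the uninjected library and 11.7% (7.17 to 17.6) with Fry-MO, and these intervals do not overlap. Of the miR-200b seed, a sequence named after the horse that differs from xtr-miR-200b in its last base (T23C) had 0, 0 and 11 reads. Its Fry-MO ratio to 3 uninjected reads was 3.85, with an interval that starts at 2.635. All 3 other-named sequences with that seed had a Fry-MO ratio of 7.87 (1.83 to 70.95), which overlaps that of miR-200b and miR-429 (2.62, 0.962 to 8.26). The seeds of miR-205, miR-194 and miR-203 had 1, 2 and 5 Fry-MO reads under other names. Over the whole table, sequences with placental mammal names took 1.97%, 12.6% and 13.9% of the listed reads. Their summed ratios to the uninjected library were 3.18 (3.05 to 3.33) for Lhx1-AS and 5.97 (5.73 to 6.23) for Fry-MO. For all *Xenopus*-named sequences these were 0.595 and 1.20, sums that are weighted by miR-427. The 4 sequences of miR-427 and miR-428 had 50177, 22554 and 17509 of the 61050, 36310 and 73207 *Xenopus*-named normalized counts. Per sequence, the median Fry-MO log2 ratio over the 93 *Xenopus*-named sequences compared was 2.02. Whether larger ratios under mammalian names were particular to these seeds was not tested. The sea squirt name, with most reads of the miR-200a seed, is outside the placental sum. Whether sequences under other names share in the reads counted for miR-200a was not tested.

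**Figure D4:**
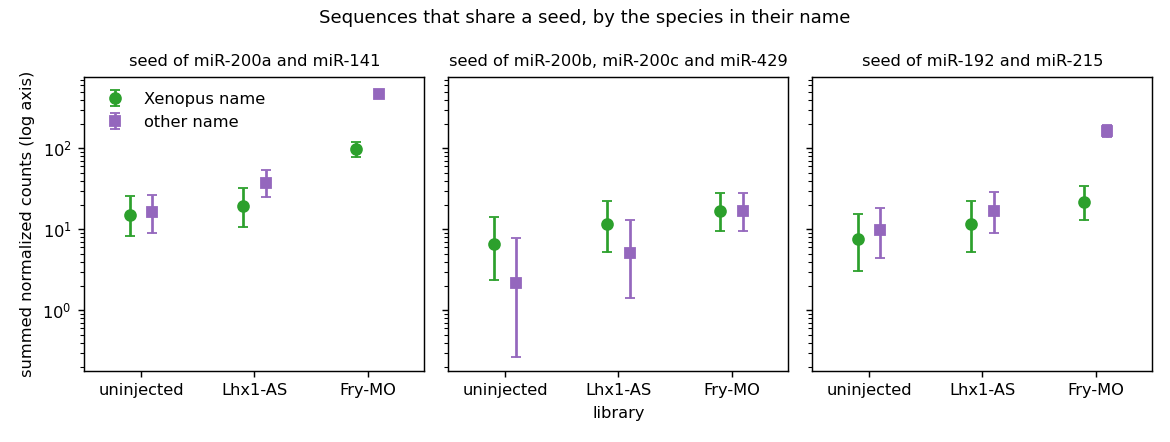
Summed normalized counts (log axis) in each library of sequences that share a seed, split into *Xenopus* names (circles) and other names (squares), with exact 95% Poisson intervals. For the seeds of miR-200a and of miR-192, other names reach 469.8 and 164.2 in the Fry-MO library, above the *Xenopus* names at 96.9 and 21.7.

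Sequences taken as the opposite arm of miR-200a, all under other species' names, did not follow miR-200a. Which precursor their reads came from was not tested. Bases 2 to 8 of the zebra finch miR-200a-5p are shared by 4 listed sequences. The 3 named miR-200a, after the zebra finch, a pufferfish and the dog, were taken as its 5p arm, and the fourth, named miR-200b, was set apart by its name. The 3 had 12, 11 and 8 reads. Their ratio to the uninjected library was 1.09 (0.436 to 2.70) for Lhx1-AS and 0.700 (0.248 to 1.86) for Fry-MO, where that of miR-200a was 6.37. The interval of the 5p arm lies below that of miR-200a (3.60 to 12.2). Of the reads of both arms, miR-200a made up 53.8% (33.4 to 73.4), 57.7% (36.9 to 76.7) and 91.4% (83.7 to 96.2), so the Fry-MO library lies above the intervals of both others. The fourth, named after the opossum, had 4, 4 and 1 reads, and all 4 together had a Fry-MO ratio of 0.590 (0.230 to 1.42).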

How the data were processed

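Small RNA libraries were sequenced by the authors' service provider on an Illumina GAIIx, the 3′ adapter was cut, and the program ACGT101-miR matched reads to miRBase, the *X. laevis* genome and those of other chordates (release and builds: not given in the sources used here). Per the file headers, the table the authors deposited holds raw reads per sequence, here called estimated counts because reads can be divided among sequences. It also holds a normalized signal that the authors obtained through division by a library size parameter (0.921, 0.773 and 0.877 for uninjected, Lhx1-AS and Fry-MO), of unstated derivation. A table of reads per step was deposited too. 2 lines of the table were not analysed here.

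Ratios of normalized counts were computed with Clopper-Pearson intervals from raw reads, and a count of 0 was set to 3 reads. No fold was given with at most 3 reads in both libraries. The calculation was tested on simulated reads with counting error only. These hold no differences between pools of embryos, so the test says nothing about such differences. Members, lists and rules were chosen with earlier results of these data known. Named were all members, up to 3 most read sequences per list and the 3 nearest to miR-200a. MiR-214, miR-223, miR-150 and miR-428 were named outside these rules. The same-seed sequences under other names and the 5p arm were chosen after its values were seen. Python 3.11.15, scipy 1.17.1, edgeR 4.0.16 and DESeq2 1.42.0 (edgeR and DESeq2 for scaling factors only, on rounded reads) were used. Alternatives were other scalings, read filters, folds and sums.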

Additional observations from a re-analysis of the deposited data

Results flagged for a closer look

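Outside the members, sums of reads under other species' names lay above the uninjected library by more than counting error. Sequences with the miR-200a seed had a ratio of 2.30 for Lhx1-AS and 28.8 for Fry-MO. With Fry-MO, those with the miR-192 seed had 16.8 and those with the seed of miR-200b and miR-429 had 7.87. All 29 sequences that carry the members' numbers under other names, which include these, had 1.70 for Lhx1-AS and 13.5 for Fry-MO. Beside them, all sequences with placental mammal names had summed ratios of 3.18 for Lhx1-AS and 5.97 for Fry-MO.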

How the results depend on the processing

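No paired analysis was possible because each condition has 1 library. Relative to the authors' normalization, scaling to the listed reads shifts all Lhx1-AS log2 ratios by 1.01 and Fry-MO by 0.24, to the mappable reads by 0.11 and 0.50, TMM by -0.15 and -0.32, and the median of ratios by -0.09 and -0.32. The number of members called with Lhx1-AS, of 1 compared, was 1 in place of 0 when scaled to the listed reads. Of all *Xenopus*-named sequences, 50 of 79 were then higher and 0 lower. With no filter on reads it was 2 of 5 (miR-192 higher, miR-205 lower), beside 33 higher and 10 lower of 110. With Fry-MO it was 1 in place of 3 at 50 reads, where only 1 member could be compared, and at 4-fold, where 4 could. Over all *Xenopus*-named sequences, these settings gave 45 higher and 7 lower of 60, and 47 higher and 1 lower of 93. Between Fry-MO and Lhx1-AS, of 4 compared, it was 1 in place of 2 when scaled to the listed reads, at 4-fold, or with an interval that excludes 1. Over all *Xenopus*-named sequences, 41, 36 and 57 of 96 were then higher and 21, 1 and 12 lower. At 50 reads it was 1 of 1 member compared, beside 40 higher and 1 lower of 58. Scaled to the listed reads, the summed ratio of the miR-200 family was 2.87 for Lhx1-AS and 2.16 for Fry-MO to Lhx1-AS, and that of the other members 2.16 for Lhx1-AS. Over sequences of any species, the Fry-MO ratios to uninjected and to Lhx1-AS were 9.95 and 6.52 for the family and 6.64 and 4.66 for the others, and without miR-200a 2.62 and 1.47 for the family. In all, 25 of 33 counts were within 1.5 times the reported count. They include the Lhx1-AS count at 50 reads, where 0 members could be compared. Of the summed ratios 27 of 36, and all 64 ratios of single members, stayed within the counting interval of the reported value. Some of these intervals exclude 1 only under another scaling, as given beside each value. Limits are the depth (41 to 135 reads over all members), 1 library per condition and no control oligonucleotide.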
